A study of Rattus norvegicus with 24 samples.

Results

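The acute phase proteins of rat liver were followed through 10 genes: A2m, Serpina3n, Itih4, Hp, Hpx, Cp, Orm1, Crp, Lbp and Lcn2. They were taken from the 15319 genes of the deposited count tables by matching each Entrez gene ID to its symbol, and all 10 were measured. Bulk RNA sequencing of liver was done in 24 Sprague-Dawley rats, an outbred stock, with 1 library per animal and 6 animals in each of 4 groups. PCB 52 females and PCB 52 males inhaled the polychlorinated biphenyl PCB 52, a persistent industrial chemical, through a nose-only system. Sessions lasted 4 hours, were given daily over 28 days and used an airflow of 12 L/min over glass beads coated with the compound. Sham females and sham males were the animals not exposed to PCB 52. The same 28 days, 4 hours per day and 12 L/min are recorded for them, and the labels do not describe the air they received. All animals arrived at 28 days of age and had 8 days of acclimation. Every animal had been trained in the apparatus, and females were 42 days old and males 39 days old when exposure started. Sex, age at the start, the count table and an even or odd animal number therefore moved together and cannot be told apart. The comparison of interest is exposure within each sex.

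The acute phase response is a change in the plasma proteins made by hepatocytes during infection, injury or inflammation. Interleukin-6 type cytokines act through gp130 and STAT3, and interleukin-1 type cytokines through NF-kB, with C/EBP factors and glucocorticoids acting on many of the same genes. In the rat, A2m is the classical strong responder and is low in healthy adults, whereas Crp circulates at a high basal level in this species. The 10 genes encode protease inhibitors (A2m, Serpina3n, Itih4), carriers of hemoglobin, heme and copper (Hp, Hpx, Cp), a drug- and lipid-binding plasma protein (Orm1) and proteins of innate defence (Crp, Lbp, Lcn2).

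Libraries held between 6994832 and 9185511 gene counts. Hepatocyte markers were high in every library, with Alb at a median of 102758.8 CPM (counts per 1000000 library counts). The 11 neutrophil markers summed to between 0.267 and 2.89 CPM over all libraries, Camp was at 0 in all 24, and Mpo and Elane were each at 0 in 23. Libraries also differed within groups along a leading component that held 13.2% of the within-group variance. Animals 13, 15 and 16, all exposed, scored 0.167, 0.213 and 0.189 on it, animals 11, 12 and 14 scored 0.127, 0.131 and 0.126, and the other libraries ran from −0.17 to 0.034. Values without animals 13 to 16 are given where they bear on a result.

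Together the 10 genes took a median of 2.78% of a library in PCB 52 females, 2.79% in sham females, 2.96% in PCB 52 males and 2.84% in sham males. The ranges were 2.66 to 3.04%, 2.5 to 2.99%, 2.81 to 3.25% and 2.64 to 2.93% in the same order of groups, so all 4 overlapped. Within groups most members were steady. The standard deviation of the group-centred log2 CPM lay between 0.13 for Hp and 0.26 for Cp in 8 genes, against 0.64 for A2m and 0.97 for Lcn2. CPM values were not scaled by gene length, so levels are compared between groups of animals and not between genes.

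**Figure D1:**
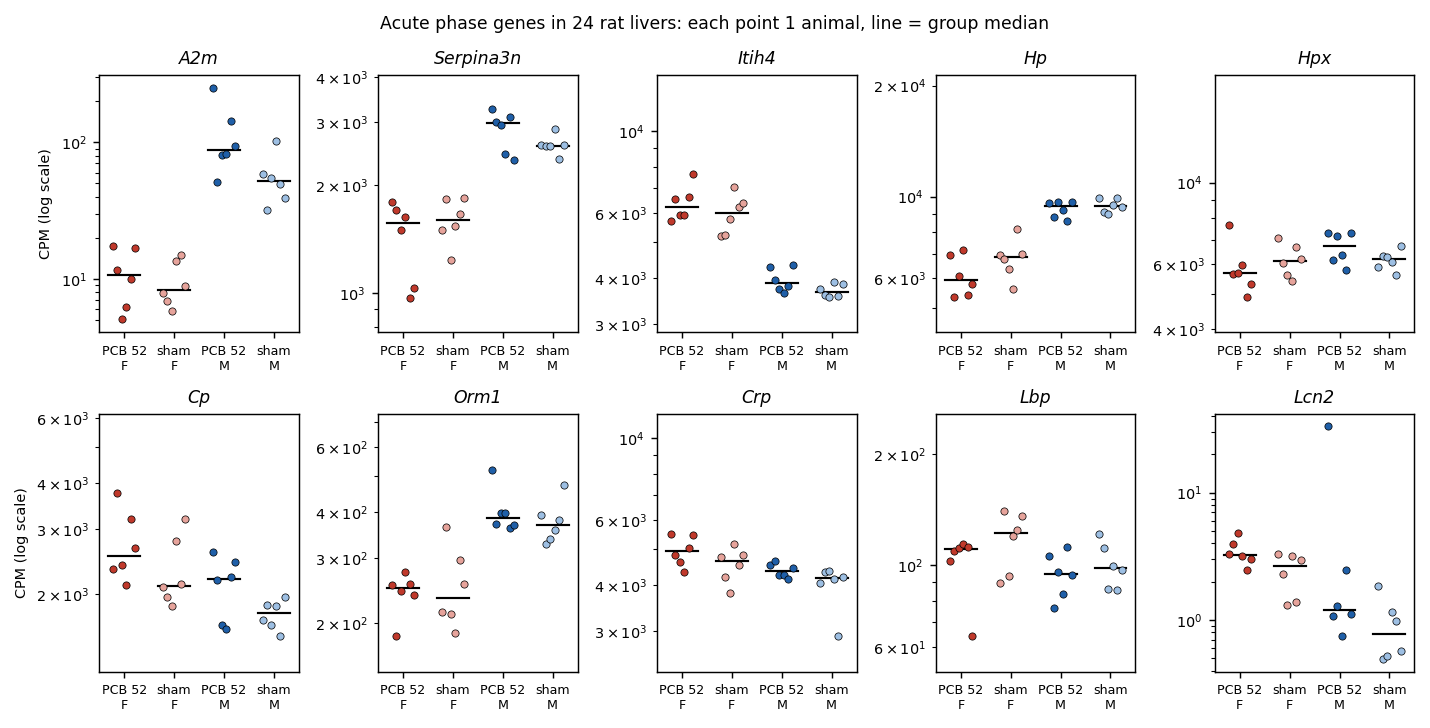
CPM of the 10 acute phase genes on log axes, 1 panel per gene with its own range, in PCB 52 females (F), sham females, PCB 52 males (M) and sham males; each point is 1 animal and each line the group median. Exposed and sham animals of one sex overlap in every panel, the A2m points of females (5.1 to 17.6 CPM) lie below those of males (31.9 to 250.2 CPM), and 1 PCB 52 male stands at 33.3 CPM of Lcn2.

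Among the protease inhibitors, A2m, a broad inhibitor that traps proteases, had the widest differences. It ran from 5.1 through a median of 10.8 to 17.6 CPM in PCB 52 females and from 5.84 through 8.36 to 15.1 CPM in sham females. In males it ran from 51.5 through 88.2 to 250.2 CPM after PCB 52 and from 31.9 through 52.2 to 102 CPM in sham animals. All females therefore lay below all males, while exposed and sham animals of each sex overlapped. Serpina3n, a serine protease inhibitor, spanned 968.9 to 1792 CPM in PCB 52 females (median 1561), 1236 to 1841 CPM in sham females (median 1596), 2344 to 3252 CPM in PCB 52 males (median 2975) and 2366 to 2871 CPM in sham males (median 2576). It had the same order of sexes as A2m, with no overlap between females and males.

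Itih4, an inter-alpha-trypsin inhibitor family heavy chain, had the opposite order. It spanned 5715 to 7636 CPM in PCB 52 females (median 6231), 5197 to 7053 CPM in sham females (median 6009.6), 3651 to 4329 CPM in PCB 52 males (median 3882) and 3560.4 to 3913 CPM in sham males (median 3666). Every female lay above every male.

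Of the carriers, Hp, which binds free hemoglobin, spanned 5358 to 7158 CPM in PCB 52 females (median 5946), 5636 to 8166 CPM in sham females (median 6859), 8602 to 9681 CPM in PCB 52 males (median 9411) and 8969 to 9944 CPM in sham males (median 9431). No female reached the lowest male. Cp, the copper-carrying ferroxidase, spanned 2117 to 3749 CPM in PCB 52 females (median 2537), 1855 to 3199 CPM in sham females (median 2108), 1607 to 2601 CPM in PCB 52 males (median 2202) and 1541 to 1962 CPM in sham males (median 1777). Exposed and sham animals overlapped in each sex, and so did females and males of each exposure. Hpx, which binds heme, lay between 4909 and 7671 CPM over all libraries, and its group medians lay between 5676 and 6753 CPM.

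Orm1, the alpha-1-acid glycoprotein, spanned 184.6 to 274.3 CPM in PCB 52 females (median 249.1), 188.1 to 363.8 CPM in sham females (median 234.3), 363.2 to 519.9 CPM in PCB 52 males (median 384.4) and 326.9 to 474.2 CPM in sham males (median 369.3). Females lay below males among exposed animals, and 1 sham female reached into the range of sham males.

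Among the defence proteins, Crp, a pentraxin that binds phosphocholine, had group medians of 4941, 4649, 4359 and 4178 CPM in PCB 52 females, sham females, PCB 52 males and sham males. Lbp, which passes bacterial lipopolysaccharide to Cd14, had medians of 110.4, 122.1, 94.8 and 98.1 CPM in the same order. Both genes overlapped between all groups. Lcn2, which binds bacterial siderophores, was counted at low levels. It spanned 2.49 to 4.85 CPM in PCB 52 females (median 3.22), 1.31 to 3.3 CPM in sham females (median 2.63), 0.749 to 33.3 CPM in PCB 52 males (median 1.21) and 0.492 to 1.84 CPM in sham males (median 0.778). These values rested on 18 to 38, 11 to 29, 6 to 256 and 4 to 15 counts in the same order of groups. The other 5 PCB 52 males ended at 2.49 CPM.

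No member differed between PCB 52 and sham females past the threshold, an adjusted p of 0.05 in edgeR's quasi-likelihood test with Benjamini-Hochberg adjustment over all genes tested. The count was 0 of 10, beside 0% of the 10251 genes tested. At an unadjusted p of 0.05 it was also 0 of 10, beside 9.96% of all genes. DESeq2 called 0 of the 8 members to which it gave an adjusted p, and limma-voom called 0 of 10. Log2 fold changes lay above 0 for 5 members and below 0 for 5, with a median of 0.02, against 50.7% of all genes above 0. Lcn2 had the highest value, 0.51 ± 0.26 (SE; edgeR adjusted p = 0.523), and Lbp the lowest, −0.19 ± 0.13 (adjusted p = 0.631). Exposed and sham females overlapped for every member, beside 0.332% of genes whose groups did not overlap. A2m, the gene with the widest range, had a log2 fold change of 0.23 with a 95% interval of −0.54 to 1.00, whereas that of Hp was −0.15 with an interval of −0.37 to 0.07.

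In males 9 members passed the filter on low counts, and Lcn2 did not. The test called 0 of 9, beside 0% of 10180 genes, and DESeq2 and limma-voom each called 0 of 9 as well. Fold changes lay above 0 for 7 members and below 0 for 2, with a median of 0.13, against 51.0% of all genes above 0. Unadjusted p lay under 0.05 for 2 members, A2m and Cp, beside 5.75% of all genes. A2m had a log2 fold change of 1.07 ± 0.42 (SE, 95% interval 0.15 to 2.00, edgeR adjusted p = 0.829). Without PCB 52 male replicate 1, animal 13, it was 0.71. Cp had a log2 fold change of 0.28 ± 0.11 (interval 0.05 to 0.51, edgeR adjusted p = 0.829), and 0.22 without that library. The other 7 lay between −0.06 for Lbp and 0.15 for Serpina3n. All 10 members, Lcn2 included, overlapped between PCB 52 and sham males, beside 0.236% of genes that did not.

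Lcn2 in males was fitted with the filter removed, a setting chosen after its values were seen. Its log2 fold change was then 2.80 ± 1.19 (edgeR adjusted p = 0.836). Without animal 13 it was 0.54 ± 0.42 (adjusted p = 0.939), so 1 library set most of this value.

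**Figure D2:**
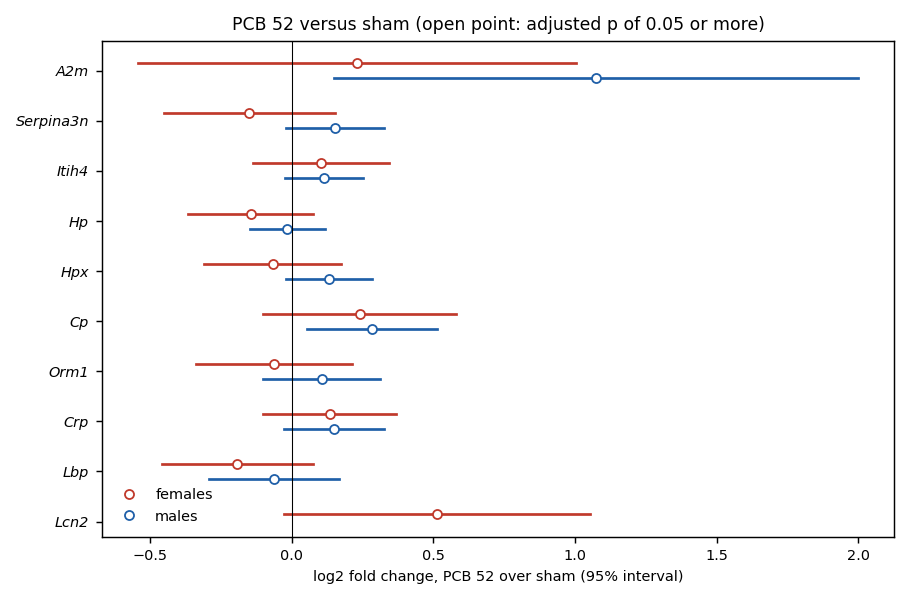
Log2 fold change of PCB 52 over sham animals for each acute phase gene in females and in males, with 95% intervals from edgeR's quasi-likelihood fit of each sex; open points did not pass an adjusted p of 0.05, and Lcn2 was below the count filter in males. All points are open, and the intervals of A2m and Cp in males end above 0.

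The difference between the 2 responses was tested directly in 1 fit of all 24 libraries. The female response minus the male response lay below 0 for 10 of 10 members, against 48.9% of all genes above 0. None of the 10 passed in that fit, beside 0% of 10535 genes, and 0 of 10 had an unadjusted p under 0.05, beside 2.27% of genes. DESeq2 called 0 of 9 and limma-voom 0 of 10. Lcn2 had the difference farthest from 0, −2.29 ± 1.16 (edgeR adjusted p = 0.999971), and it was −0.03 without animal 13. A2m differed by −0.84 ± 0.58, and by −0.49 without animal 13. The differences of Itih4, Crp and Cp, −0.01, −0.02 and −0.04, changed sign in several of the fits that left out 1 library. Without animal 13 those of Cp and Itih4 were 0.017 and 0.0081. In limma-voom those of Crp and Cp were 0.022 and 0.0092. The count of 10 of 10 below 0 therefore did not hold in either setting.

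Averaged over both sexes, the response passed for 0 of 10 members, beside 0% of genes, and DESeq2 called 0 of 9 and limma-voom 0 of 10. At an unadjusted p under 0.05 there were 3, beside 15.4% of all genes. Lcn2 had a log2 value of 1.66 ± 0.58 (edgeR adjusted p = 0.201), which was 0.53 without animal 13. A2m had 0.65 ± 0.29 (adjusted p = 0.291) and Cp 0.26 ± 0.11 (adjusted p = 0.243). Without the 4 consecutively numbered exposed animals 13 to 16, A2m in females had a log2 fold change of −0.01.

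Several members differed between females and males. In sham animals 5 of 10 members passed, beside 20.3% of all genes. Itih4 was higher in females, beside 10.7% of genes called higher, with a log2 fold change of 0.67 ± 0.09 (edgeR adjusted p = 2.6e-06). A2m, Serpina3n, Orm1 and Hp were lower in females, beside 9.62% of genes called lower. A2m fell furthest, by 2.55 on the log2 scale (SE 0.42, adjusted p = 0.000103), which is 5.88-fold. Serpina3n was 1.65-fold, Orm1 1.52-fold and Hp 1.42-fold lower, with edgeR adjusted p-values of 6.07e-05, 0.00052 and 4.75e-05. Of the 5, Itih4 did not overlap between sham females and sham males in the higher direction, and A2m, Serpina3n and Hp did not in the lower one, beside 11.5% of all genes.

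Among PCB 52 animals the members that passed were again A2m, Serpina3n, Orm1, Hp and Itih4, 5 of 10 beside 19.9% of all genes. All 5 were without overlap there, beside 9.84% of genes. Itih4 was 1.58-fold higher in females (edgeR adjusted p = 2.99e-06), beside 10.1% of genes called higher. A2m was 10.6-fold lower in females (log2 −3.40 ± 0.42, adjusted p = 2.62e-06), Serpina3n 2.03-fold, Orm1 1.71-fold and Hp 1.55-fold, beside 9.73% of genes called lower. The interaction given above is the test of whether the sex difference changed with exposure, and it passed for none of these genes.

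The remaining 5 members did not pass in either sex contrast in edgeR, and some of those outcomes turned with the tool, the design or single libraries. Among PCB 52 animals limma-voom called 6 of 10 members and DESeq2 5 of 9, and among sham animals limma-voom called 5 of 10 and DESeq2 5 of 9. Lcn2 had a log2 fold change of −0.96 ± 0.71 in PCB 52 females over PCB 52 males (edgeR adjusted p = 0.398) and 1.33 ± 0.93 in sham females over sham males (adjusted p = 0.371). Without animal 13 it was 1.30 among PCB 52 animals (adjusted p = 0.00488) and 1.33 among sham animals (adjusted p = 0.00507), so the direction among PCB 52 animals turned with 1 library and both contrasts then passed. Hpx among PCB 52 animals had −0.22 ± 0.10 (adjusted p = 0.119), and −0.32 without PCB 52 female replicate 1 (adjusted p = 0.00675). It was −0.26 in limma-voom (adjusted p = 0.0388), where it was the sixth member called, and −0.34 in edgeR without animals 13 to 16 (adjusted p = 0.0177). Cp was 0.39 ± 0.15 in sham females over sham males (adjusted p = 0.0686). It passed without sham female replicate 2 (adjusted p = 0.0458), without sham female replicate 3 (0.0355) or without PCB 52 female replicate 2 (0.0481). Among PCB 52 animals Cp was 0.34 ± 0.15 (adjusted p = 0.114), and 0.42 without PCB 52 female replicate 4 (adjusted p = 0.0472). In an edgeR fit with a block for each male and female of consecutive number, Cp passed in both contrasts, at 0.36 among sham animals (adjusted p = 0.0162) and 0.33 among PCB 52 animals (adjusted p = 0.0249). Crp and Lbp had log2 values between 0.07 and 0.20 in both contrasts and did not pass.

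**Figure D3:**
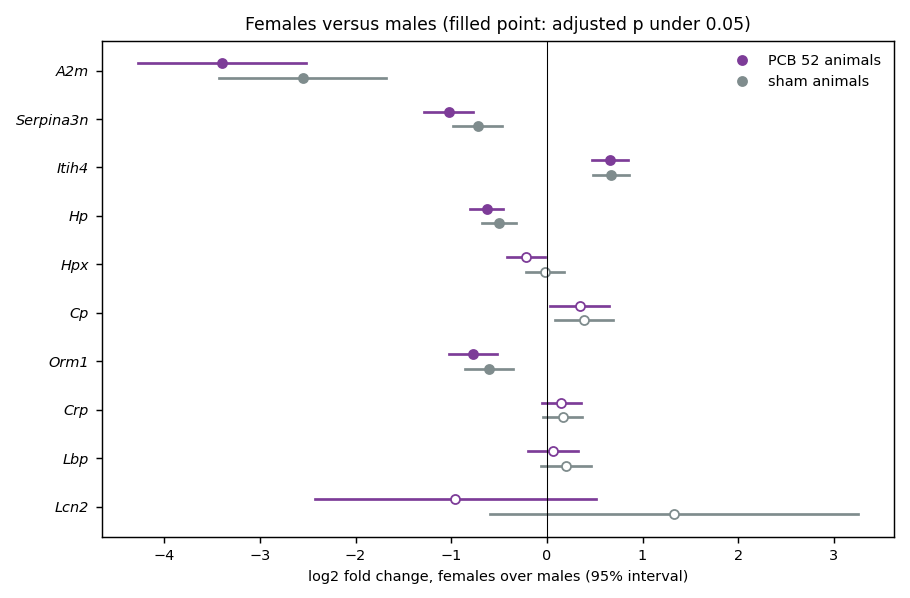
Log2 fold change of females over males for each acute phase gene among PCB 52 animals and among sham animals, with 95% intervals from 1 edgeR fit of all 24 libraries; filled points passed an adjusted p of 0.05. A2m, Serpina3n, Hp and Orm1 lie below 0 and Itih4 above 0 in both contrasts, and the intervals of Lcn2 span 0.

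Macrophage markers moved with sex in the same livers. Of 11 Kupffer cell and macrophage markers measured, 8 were higher in sham females and 7 in PCB 52 females, beside 10.7% and 10.1% of all genes, and 0 were lower. Their summed level ran from 736.9 to 983.8 CPM in PCB 52 females, 832.7 to 1094 CPM in sham females, 653.4 to 751 CPM in PCB 52 males and 628.2 to 772.1 CPM in sham males. No marker of the list was at 0 in any library. Their part in the sex differences was not tested, and in bulk tissue fewer cells of a type and less RNA per cell cannot be told apart.

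The starts of Serpina3n and Itih4 are shown because these inhibitors passed in opposite directions between the sexes, that of Cp because it varied with Itih4 between animals, and that of Lcn2 because of its level in animal 13. RefSeq (GRCr8) held a window of 250 bases before to 50 bases after the start for 7 of the 10 members. The windows were chr6:129088142-129088441, plus strand, for Serpina3n, chr16:6086735-6087034, plus strand, for Itih4, chr2:104368420-104368719, plus strand, for Cp, and chr3:36081731-36082030, minus strand, for Lcn2. Each is printed 5′ to 3′ along its gene, with capitals on the motif matches of both strands.
Serpina3n: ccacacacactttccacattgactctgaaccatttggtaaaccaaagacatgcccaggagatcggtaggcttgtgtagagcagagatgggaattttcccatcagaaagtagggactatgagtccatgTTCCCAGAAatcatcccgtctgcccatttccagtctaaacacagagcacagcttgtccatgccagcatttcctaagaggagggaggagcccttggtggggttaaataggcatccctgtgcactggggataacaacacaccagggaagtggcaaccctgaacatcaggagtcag
Itih4: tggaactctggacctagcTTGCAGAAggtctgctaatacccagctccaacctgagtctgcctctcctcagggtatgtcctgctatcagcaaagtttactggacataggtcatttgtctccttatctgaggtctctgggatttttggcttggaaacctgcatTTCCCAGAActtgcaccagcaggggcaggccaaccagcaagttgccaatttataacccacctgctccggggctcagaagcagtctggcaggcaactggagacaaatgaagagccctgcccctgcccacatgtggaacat
Cp: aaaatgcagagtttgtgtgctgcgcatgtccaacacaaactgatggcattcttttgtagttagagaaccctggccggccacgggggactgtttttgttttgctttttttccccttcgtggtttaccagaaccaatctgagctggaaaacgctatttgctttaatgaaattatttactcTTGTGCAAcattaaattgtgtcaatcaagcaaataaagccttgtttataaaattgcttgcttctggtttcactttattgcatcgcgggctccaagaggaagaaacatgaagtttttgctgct
Lcn2: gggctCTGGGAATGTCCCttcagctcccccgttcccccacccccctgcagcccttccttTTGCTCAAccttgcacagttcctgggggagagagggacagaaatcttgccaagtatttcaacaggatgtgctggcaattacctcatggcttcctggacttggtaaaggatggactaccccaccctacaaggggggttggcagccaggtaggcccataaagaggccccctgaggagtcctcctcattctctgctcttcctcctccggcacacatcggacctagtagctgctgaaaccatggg
The STAT palindrome TTCNNNGAA was found in Serpina3n and Itih4, both times with the letters TTCCCAGAA, from −123 to −115 and from −89 to −81 relative to the start. The core of the type II interleukin-6 element, CTGGGAA, was found in Lcn2, Serpina3n and Itih4, and in the last 2 it lay inside the STAT palindrome. The C/EBP motif TTGCNNAA was found in Orm1, Lcn2, Cp, Hpx and Itih4, and the NF-kB consensus in Lcn2 alone of the 7, overlapping the type II core. Crp held none of the 4 motifs. Among 33469 RefSeq promoter windows of that length, 8.87% held the STAT palindrome, 11.3% the type II core, 10.6% the C/EBP motif and 4.18% the NF-kB consensus. A2m, Hp and Lbp had no entry.

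Single libraries were searched for an acute phase pattern, set as at least 5 of the 10 members lying 1.5-fold or more above the median of the library's own group. No library of the 24 met it (0 of 24), and 0 met it with a 2-fold level, against the mean of the other 5 animals, or without TMM scaling. The most members past 1.5-fold in a library were 2, in PCB 52 male replicate 1 (animal 13) and PCB 52 male replicate 5 (animal 21), beside 2.73% and 2.34% of all genes in those libraries. Both times the genes were A2m and Lcn2. Animal 21 had 143.5 CPM of A2m and 2.49 CPM of Lcn2, which came from 21 counts.

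Animal 13 lay above its group median for 10 of 10 members. Its Lcn2 level was 33.3 CPM from 256 counts (exact Poisson 95% interval 29.3 to 37.6 CPM, counting error only), against a group median of 1.21 CPM. On log2 CPM with TMM and a prior count of 2, which shrinks folds of low counts, Lcn2 in animal 13 was 22.7-fold the group median. Its A2m level was 250.2 CPM, the highest of the 24 libraries, and its Orm1 level was 519.9 CPM against a group median of 384.4. The median deviation over its 10 members was 0.13 on the log2 scale. Sham female replicate 6 (animal 12) was also above its group median for 10 of 10 members, with Cp highest at 1.44-fold and none past 1.5-fold. Sham female replicate 3 (animal 6) was above it for 0 of 10, with a median deviation of −0.29.

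In animal 13 the wider response was measured through other gene lists. Of 24 other positive acute phase genes that passed the filter, 13 lay above the group median and 0 reached 1.5-fold. The median log2 deviation of that list was 0.019, and Steap4 was the highest at 1.16-fold. The fibrinogen chain genes Fga, Fgb and Fgg were at 1.09-fold, 1.06-fold and 1.06-fold, each above all of the other 5 PCB 52 males. The hepcidin gene Hamp was at 0.887-fold, within the range of the other 5. Tat, the tyrosine aminotransferase gene of the same list, was at 0.551-fold and 440 CPM, below the 686.7 to 1191.3 CPM of the other 5. Of 15 negative acute phase genes, which fall in the response, 6 lay above the group median, and the median log2 deviation was −0.127. Apoa4 was at 0.683-fold and Ttr at 0.799-fold, while Mug1 was the highest at 1.17-fold. Of 27 genes of cytokine signalling, 15 lay above the group median and 0 reached 1.5-fold. The highest was Socs3, the feedback inhibitor induced by STAT3, at 1.46-fold and 12.3 CPM, against 2.81 to 10.5 CPM in the other 5 PCB 52 males. Cebpb and Cebpd, which encode C/EBP factors, were at 0.681-fold and 0.694-fold, and Il6r, the interleukin-6 receptor gene, was at 0.719-fold. Cebpb, at 120.4 CPM, lay within the range of the other 5 (115.7 to 262.1 CPM). Cebpd was at a low level, 2.08 CPM against 2.14 to 4.50 CPM, and Il6r was at 176.3 CPM against 193.7 to 323.1 CPM. The neutrophil marker sum was 1.30 CPM in animal 13, within the range of its group (0.267 to 2.25 CPM), and 3 of 11 macrophage markers lay above the group median.

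**Figure D4:**
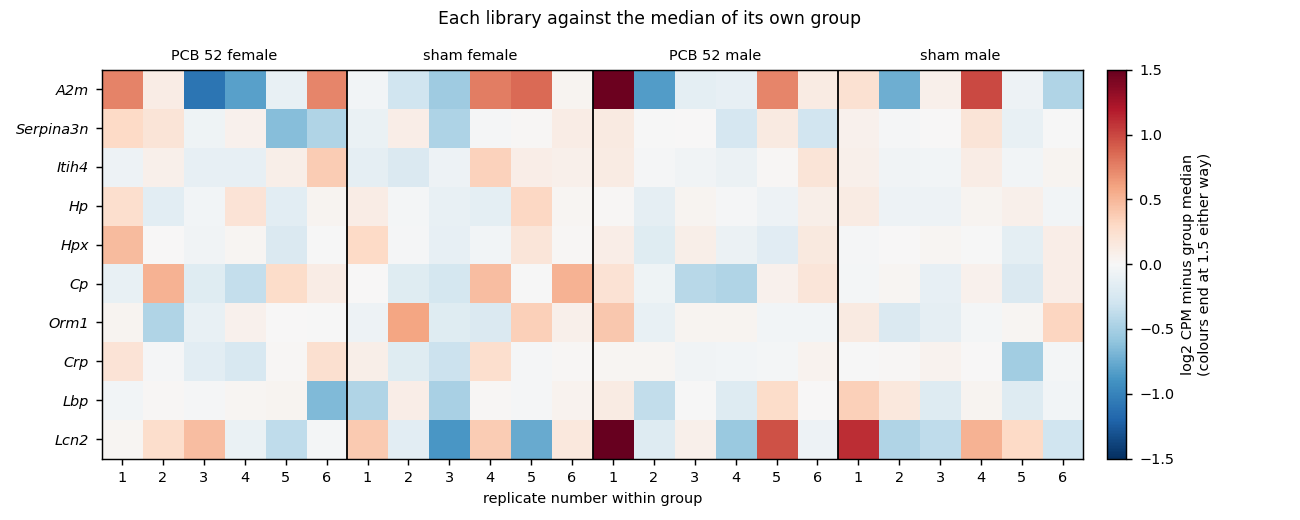
Log2 CPM of each acute phase gene minus the median of its own group, in the 6 libraries of each of the 4 groups; red is above the group median, blue below, and colours end at 1.5 in either direction. The deepest red is Lcn2 and A2m in PCB 52 male replicate 1, whose Lcn2 deviation is 4.50, while most cells are pale.

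Pairs of members were compared over the 24 libraries after centring each group, to see which genes varied together between animals of one group. Of 45 pairs, 35 had a Pearson r above 0, the median r was 0.221, and 3 passed a two-sided permutation test within groups (100000 permutations, Benjamini-Hochberg over the 45 pairs). Hp and Hpx, the hemoglobin and heme carriers, had r = 0.677 and rho = 0.649 (permutation adjusted p = 0.0352 and 0.025). Cp and Itih4 had r = 0.678 and rho = 0.750 (permutation adjusted p = 0.0352 and 0.013). A2m and Itih4 had r = 0.607 and rho = 0.641 (permutation adjusted p = 0.0352 and 0.025). Without the 2 libraries farthest from the median, r was 0.561, 0.744 and 0.604 for these pairs. Within females alone r was 0.759, 0.654 and 0.692, and within males alone 0.388, 0.800 and 0.574, in the same order of pairs. By Pearson r no pair passed within a sex, without TMM scaling or without animal 13 (0 of 45 each time), and 2 passed without animals 13 to 16. By rho 3 passed over all libraries, 0 within a sex, 1 without TMM scaling, 1 without animal 13 and 3 without animals 13 to 16. The pair that passed by rho was Cp and Itih4 both without TMM scaling (r = 0.659, rho = 0.748, permutation adjusted p = 0.0835 and 0.0247) and without animal 13 (r = 0.670, rho = 0.727, permutation adjusted p = 0.0682 and 0.0418). Pairs from 1 library share its depth and scaling. A2m and Lcn2 had r = 0.533 (permutation adjusted p = 0.0906), and 0.323 without animal 13.

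**Figure D5:**
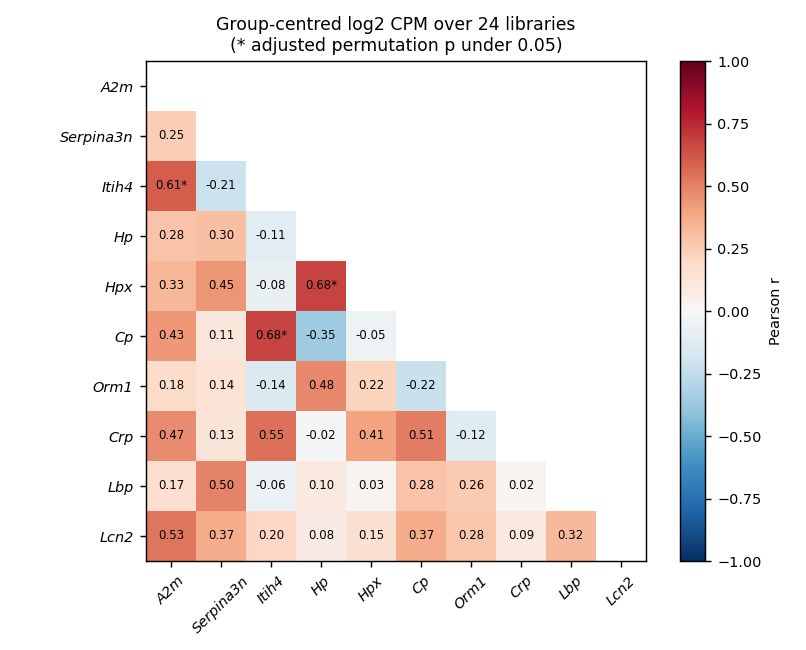
Pearson r of group-centred log2 CPM between each pair of acute phase genes over 24 libraries; red is positive, blue negative, and asterisks mark pairs with a permutation adjusted p under 0.05. Asterisks stand on Hp with Hpx, Cp with Itih4 and A2m with Itih4, and the lowest r is −0.355 for Hp with Cp.

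The genes whose group-centred log2 CPM was most like the mean of the 10 members over 24 libraries were Slc17a1 (r = 0.765), Kif2a (0.763), Prkra (0.725), Cilk1 and Sult1c2a (0.715 each), Sdcbp (0.714), Car8 (0.713), Smpdl3a (0.708), Sat1 (0.696) and Etaa1 (0.692). These are descriptions over libraries that share depth and scaling. The mean of the members followed Lcn2 (r = 0.848) and A2m (r = 0.825) most closely, and without animal 13 the r of Slc17a1 was 0.673.

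Other genes of the acute phase were counted in lists. Of 23 other positive acute phase genes tested in females, 0 passed between PCB 52 and sham, and 4 had an unadjusted p under 0.05, all in the lower direction, beside 9.96% of all genes in either direction. They were Mt2A and Mt1, metallothionein genes, Hamp, and Tat, the tyrosine aminotransferase gene. Tat averaged 779.2 ± 347.2 CPM in PCB 52 females and 1475 ± 364.5 CPM in sham females (SD, n = 6 each), a log2 fold change of −0.91 ± 0.25 (edgeR adjusted p = 0.388). In males 0 of 23 passed. Hamp there averaged 377.3 ± 50.9 CPM after PCB 52 and 534.2 ± 92.2 CPM in sham males, a log2 fold change of −0.48 ± 0.12 (edgeR adjusted p = 0.829). At an unadjusted p under 0.05 there was 1 gene lower, Hamp, and 1 higher, C3, beside 5.75% of all genes. The median log2 fold change of the list was 0.05 in each sex, against 0.00 over all genes.

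Of 15 genes that fall in the acute phase, 0 passed for exposure in either sex. Apoa1, the main protein of high-density lipoprotein, had the smallest p in both, with log2 fold changes of −0.74 ± 0.19 in females (edgeR adjusted p = 0.330) and −0.30 ± 0.11 in males (adjusted p = 0.829). Unadjusted p lay under 0.05 for 2 of the 15 in females, both lower, beside 9.96% of all genes, and for 2 in males, 1 in each direction, beside 5.75%. Of 27 tested genes of cytokine signalling, 0 passed in either sex. At an unadjusted p under 0.05 there were 2 higher and 3 lower in females, 5 of 27 beside 9.96% of all genes. The lower ones were Cebpb at −0.54 ± 0.18, Il6r at −0.31 ± 0.10 and Hnf4a, a hepatocyte transcription factor, at −0.24 ± 0.08, and among the higher ones was Nr3c1, the glucocorticoid receptor, at 0.20 ± 0.09, named after its value was seen. In males there were 1 higher and 3 lower, 4 of 27 beside 5.75%. The lower ones were Cebpd at −0.61 ± 0.22, Nfkbia, the NF-kB inhibitor, at −0.31 ± 0.11 and Cebpa at −0.23 ± 0.10, and the higher one was Il1r1, the interleukin-1 receptor, at 0.19 ± 0.08.

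Genes of these lists were also counted between the sexes, beside 10.7% of all genes called higher and 9.62% called lower in sham females, and 10.1% and 9.73% in PCB 52 females. In sham animals, 3 of 24 other positive acute phase genes were higher in females, with Apcs at 0.40 ± 0.09 and Mt1 at 0.62 ± 0.15, and 3 were lower, with Serpina1, the alpha-1-antitrypsin gene, at −0.64 ± 0.08 and Saa4 at −0.52 ± 0.12. Among PCB 52 animals 2 of these 24 were higher and 3 lower. In the cytokine list 3 of 27 were higher and 1 lower in sham females. Both lists' shares of higher genes lay near those of all genes. Osmr, the oncostatin M receptor, averaged 12.6 ± 7.04 CPM in sham females and 2.29 ± 1.38 CPM in sham males (SD, n = 6 each), a log2 fold change of 2.45 ± 0.44 (edgeR adjusted p = 0.000239). Stat3, the transcription factor downstream of gp130, averaged 166.2 ± 43.9 CPM in sham females and 101.7 ± 13.3 CPM in sham males (log2 0.69 ± 0.16, edgeR adjusted p = 0.00207). Among PCB 52 animals 3 of the 27 were higher and 2 lower in females, with Osmr at 3.12 ± 0.47, Stat3 at 0.70 ± 0.16 and Il1b, a macrophage cytokine gene, at 0.98 ± 0.20. Il6r was one of the lower genes, at −0.36 ± 0.12 (edgeR adjusted p = 0.0314). Of the 15 negative acute phase genes, 1 was higher and 5 lower in sham females, and 2 were higher and 6 lower in PCB 52 females. Serpina6, which encodes the corticosteroid carrier of plasma, was higher in females in both, at 1.02 ± 0.16 among sham animals.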

How the data were processed

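Liver RNA of 24 rats was analysed from the deposited gene counts, given as whole numbers without normalization in 1 table per sex, per the labels. The submitters' processing notes name FastQC, HISAT2 and the rat build rn6. Strand setting, annotation and counting tool are not given in the sources used here. Counts of Hp, Cp and Hpx, which overlap Txnl4b, Hps3 and LOC134483766 in GRCr8, and of A2m and Serpina3n, which have close paralogs, are therefore uncertain. Of 15319 gene IDs, 15230 matched a RefSeq symbol, and the 89 others stayed in the library totals. No library was a duplicate of another in its own group, since replicates differed by more than sampling noise (chi-square per degree of freedom of at least 6.68). Libraries of different groups were not compared in this way.

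Tests used edgeR 4.0.16 in R 4.3.3 (TMM, filterByExpr with a minimum count of 10 and a total of 15, robust quasi-likelihood fit, Benjamini-Hochberg over all genes, threshold 0.05). Exposure was fitted within each sex, and other contrasts in 1 fit of all 24 libraries. CPM are counts per 1000000 library counts without TMM, and deviations and correlations use log2 CPM with TMM and a prior count of 2. Alternatives were DESeq2 1.42.0, limma-voom 3.58.1, RLE factors, other filters, a fit that was not robust, a threshold of 0.10, each library left out and a fit without animals 13 to 16. Correlations without animal 13 or without animals 13 to 16, Lcn2 in males without the filter, and a block (fixed in edgeR, random in limma-voom) for males and females of consecutive animal number were added after seeing the values. The tests were tried on simulated counts. Each library is a separate animal, numbered in accession order within its group. All 10 members are named, with up to 4 genes per list by smallest p and the 10 genes most like the members' mean. A gene that this rule selects from the cytokine list is not reported here. Members and lists were chosen with earlier results of these data known.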

Additional observations from a re-analysis of the deposited data

Results flagged for a closer look

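Of 40 sets of 6 libraries (10 genes in 4 groups), 4 held a library whose gap to its nearest neighbour took more of the group's range than Dixon's 95% critical value allows. Chance flags about 1 in 20 such sets. Lcn2 was at 33.3 CPM in PCB 52 male replicate 1, with the next PCB 52 male at 2.49 CPM. Orm1 was at 519.9 CPM in the same library, with the next at 398.7 CPM. Lbp was at 64.3 CPM in PCB 52 female replicate 6, the lowest of its group, with the next at 102.4 CPM. Crp was at 2911 CPM in sham male replicate 5, the lowest of its group, with the next at 4039 CPM.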

How the results depend on the processing

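The labels pair no animals, and the groups share no animal numbers. A block for each male and female of consecutive animal number, chosen after seeing the data, called 2467 genes between sham females and sham males (1292 higher, 1175 lower), 2403 between PCB 52 females and PCB 52 males (1223 higher, 1180 lower) and 0 for the difference of the responses, against 2139, 2093 and 0. Exposure itself could not be fitted within these blocks, and with the same pairs as a random block in limma-voom (consensus correlation 0.178) the mean response over both sexes called 0 genes and Serpina3n was −0.012. Counts of genes called for exposure, 0 in edgeR, depended on the tool: DESeq2 called 28 in females (7 higher, 21 lower), 1 in males and 105 for the mean of both sexes. A threshold of 0.10 gave 22 for that mean, and 1 fit of all 24 libraries gave 1 in females. With 1 library left out the counts ran from 0 to 8 in females and from 0 to 15 for the mean of both sexes. Co-varying pairs by Pearson r numbered 0 in females only, in males only, with plain CPM and without PCB 52 male replicate 1, against 3, while by rho they numbered 0, 0, 1 and 1, against 3. The cause of these shifts was not tested. The 5 members called between the sexes passed in both contrasts under all alternatives that gave them a value.

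Log2 values that changed sign were small, apart from Lcn2. Without a count filter Serpina3n was −0.000185 for the mean of both sexes. With the block of consecutively numbered animals Lcn2 was 0.27 in PCB 52 females over PCB 52 males. With limma-voom Serpina3n was −0.049, Crp and Cp had female minus male responses of 0.022 and 0.0092, and Lcn2 was 0.69 in PCB 52 females over PCB 52 males. Without animals 13 to 16, A2m in females was −0.0054, Hp in males 0.0047 and the Itih4 response difference 0.032. In that setting Hpx and Serpina3n were −0.018 and −0.12 for the mean of both sexes, and Lcn2 and Lbp were 1.18 and −0.011 in PCB 52 females over PCB 52 males. With 1 library left out the response difference ran from −0.068 to 0.061 for Crp, from −0.15 to 0.054 for Cp and from −0.089 to 0.063 for Itih4. In males Hp ran from −0.038 to 0.0074 and Lbp from −0.13 to 0.011, and in females Orm1 ran from −0.12 to 0.051. For the mean of both sexes Hpx ran from −0.014 to 0.064, Orm1 from −0.015 to 0.083 and Serpina3n from −0.037 to 0.048. In sham females over sham males Hpx ran from −0.073 to 0.014, and Lcn2 in PCB 52 females over PCB 52 males ran from −1.20 to 1.30. Depth limits Lcn2 most, with 4 to 38 counts in every library but 1.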

Other observations

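Outside the acute phase lists, the genes standing highest in animal 13 (PCB 52 male replicate 1) against its group median were Ly6al at 14.1-fold (3.25 CPM), Ubd, a ubiquitin-like gene induced by inflammatory cytokines, at 7.83-fold (18.3 CPM), and Hrk at 5.07-fold (10.4 CPM). Provisional gene symbols were left out of this ranking, and its folds use the prior count of 2. Next came Tspan2 at 3.58-fold (2.47 CPM), Npas2 at 3.41-fold (7.15 CPM) and Msln at 3.31-fold (6.37 CPM). Further down, after other genes not named here, RT1-A2, a class I histocompatibility gene, was at 2.74-fold (68.9 CPM). These genes were chosen after their values were seen. Tat, which belongs to the list of other positive acute phase genes, was at 0.551-fold in the same library.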
